A study of Caenorhabditis elegans with 2 samples.

Results

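Regions at 10 genes for chromatin proteins were followed in a map of binding sites of the transcription factor ALR-1. The genes were zfp-1, dot-1.1, met-1, mes-4, met-2, set-25, hpl-2, set-2, set-17 and hmg-1.2. A region was taken for a gene when the closest start of any protein-coding transcript belonged to it, or when the point source of the region (the base the authors' caller marks as its centre) lay between the ends of the gene. By this rule 20 of the 12996 regions of the pooled list were members, and so were 6 of the 103 peaks in the authors' list of reproducible peaks. That list was cut by IDR, the irreproducible discovery rate, which weighs how alike a region ranks in replicates. Replicate 1 contributed 11 of its 5071 regions and replicate 2 contributed 11 of its 7568. The genes were selected on knowledge of the pooled signals of zfp-1 and met-1, so all values below are descriptions and none was tested.

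The assay was chromatin immunoprecipitation followed by sequencing (ChIP-seq), which recovers DNA bound by a protein. Both libraries came from whole L2 larvae, male and female pooled, of the Caenorhabditis elegans strain OP200. Its genotype is unc-119(ed3) III; wgIs200, in which wgIs200 is the insertion that carries alr-1 fused to eGFP, and there was 1 group with 2 biological replicates. Cells of all tissues were mixed, the factor was the tagged copy, and no list from worms without the tag was analysed here. The candidate lists hold background regions as well as peaks, and the depth of the libraries is unknown.

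Histone methyltransferases add methyl groups to lysines of histones, and the position of the lysine sets what the mark is known for. ZFP-1, a PHD-finger protein related to mammalian AF10, is known to work in a complex with DOT-1.1, the worm relative of the histone H3 methyltransferase DOT1L. MET-1 and MES-4 methylate another lysine of H3, a mark found over transcribed genes, and MES-4 is best known from the germline. MET-2 and SET-25 deposit the methylation of H3 that marks silent heterochromatin, and HPL-2 is a worm HP1 protein, a reader of such chromatin. SET-2 is the main methyltransferase of the mark found at active promoters, and SET-17 is a further histone methyltransferase. HMG-1.2 is an HMG-box protein that binds DNA with little regard to sequence.

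The bases around the 5 IDR peaks of zfp-1 and hmg-1.2 carry the results below and are shown first, with the region upstream of set-25, the one window of the 6 with TAATTA, a core sequence bound by many homeodomain proteins. The sequence is the plus strand of WBcel235, the assembly behind ce11, from RefSeq, with 100 bases on either side of the point. Capitals mark matches to GAGAGA and TAATTA on either strand, GAGAGA reading TCTCTC on the other.
zfp-1 rank 2, chrIII:8802068-8802268: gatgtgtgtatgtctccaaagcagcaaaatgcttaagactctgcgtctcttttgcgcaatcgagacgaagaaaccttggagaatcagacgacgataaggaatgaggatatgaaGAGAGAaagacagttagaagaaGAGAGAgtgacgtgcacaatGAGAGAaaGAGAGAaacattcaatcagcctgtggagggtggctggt
zfp-1 rank 10, chrIII:8800068-8800268: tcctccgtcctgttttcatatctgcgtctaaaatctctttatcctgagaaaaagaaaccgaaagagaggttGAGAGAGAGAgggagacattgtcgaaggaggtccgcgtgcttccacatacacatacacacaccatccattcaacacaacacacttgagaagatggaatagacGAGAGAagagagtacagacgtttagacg
zfp-1 rank 17, chrIII:8795585-8795785: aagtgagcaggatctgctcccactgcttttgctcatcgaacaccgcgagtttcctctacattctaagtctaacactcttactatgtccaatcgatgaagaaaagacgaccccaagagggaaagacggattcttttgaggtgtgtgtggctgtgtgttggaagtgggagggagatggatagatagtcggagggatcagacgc
zfp-1 rank 40, chrIII:8797481-8797681: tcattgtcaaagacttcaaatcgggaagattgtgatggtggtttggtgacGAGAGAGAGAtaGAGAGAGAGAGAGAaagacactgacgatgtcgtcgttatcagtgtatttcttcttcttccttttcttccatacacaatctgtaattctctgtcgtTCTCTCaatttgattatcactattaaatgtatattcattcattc
hmg-1.2 rank 68, chrIII:6280179-6280379: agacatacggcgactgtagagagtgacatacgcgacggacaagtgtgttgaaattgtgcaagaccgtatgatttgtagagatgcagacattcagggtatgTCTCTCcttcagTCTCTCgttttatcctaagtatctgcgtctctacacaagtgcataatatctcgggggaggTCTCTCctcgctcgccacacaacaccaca
set-25 rank 7015, chrIII:13293164-13293364: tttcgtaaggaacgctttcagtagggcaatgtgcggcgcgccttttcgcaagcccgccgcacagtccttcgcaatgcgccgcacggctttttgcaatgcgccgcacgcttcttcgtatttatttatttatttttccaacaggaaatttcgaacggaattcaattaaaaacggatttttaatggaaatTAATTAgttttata

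The 6 IDR peaks fell on 3 of the 10 genes, with 4 at zfp-1, 1 at met-1 and 1 at hmg-1.2. An IDR peak was assigned to 0.521% of the 19973 protein-coding genes and made up 0.793% of pooled regions, but the list was chosen in part for these peaks and nothing is read from the difference. Outside zfp-1, 2 of 12 pooled regions were IDR peaks. At least 1 pooled region was found at 7 of the 10 genes, beside 39% of all protein-coding genes. No region was assigned to met-2, mes-4 or hpl-2 in the pooled list or in either replicate. Signals, in the unstated units of the authors' caller, had a median of 5.37 over the 20 pooled regions and 3.89 over all 12996. The weakest of the 6 peaks, at hmg-1.2, had a signal of 23.2, and the strongest of the other 14 regions, also at hmg-1.2, had 13.2. The threshold of the list lay between them, with 21.3 for the last IDR peak and 21.2 for the next region. The IDR list was thus the 103 pooled regions of highest signal. The 14 regions outside the IDR list had a median signal of 3.55, beside 3.89 for all regions outside it, so these 14 were about as weak as the rest of the list.

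**Figure D1:**
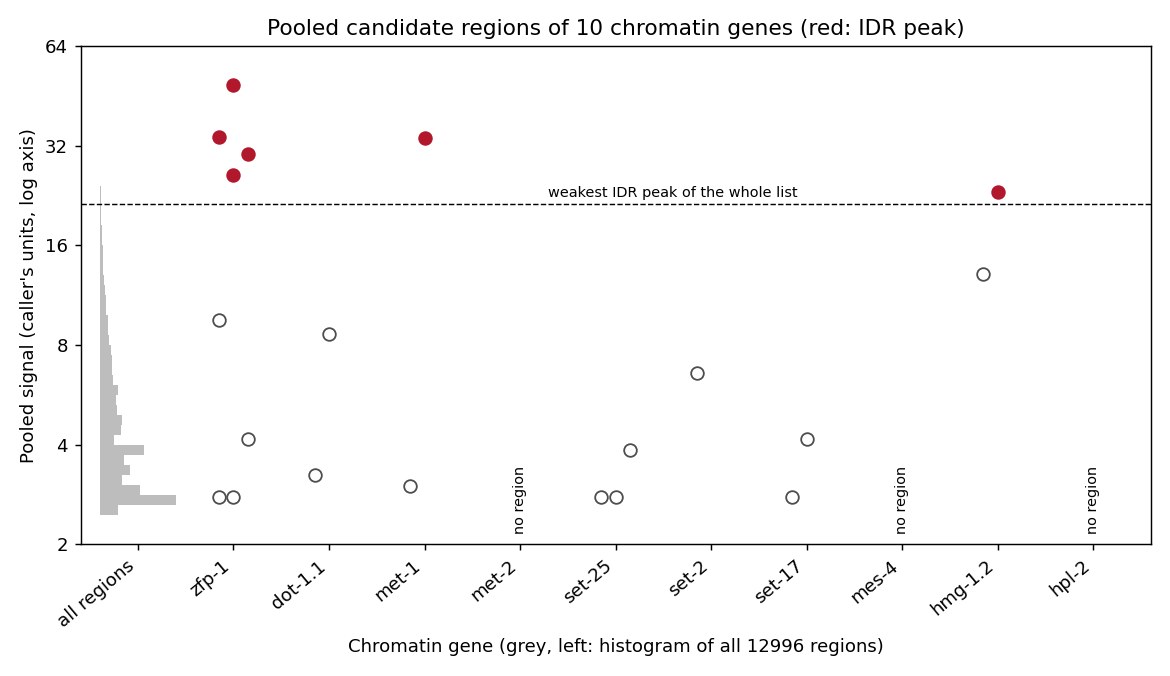
Pooled signal of each candidate region at the 10 chromatin genes on a log axis, with a grey histogram of all 12996 pooled regions at the left and a dashed line at the weakest IDR peak (21.3). The red points, which are IDR peaks, belong to zfp-1 (4), met-1 (1) and hmg-1.2 (1), and 3 genes have no region.

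The zfp-1 gene (WBGene00006975, III:8791535-8806305, plus strand) spans 14771 bp and has 9 annotated transcript starts, which 0.225% of protein-coding genes exceeded. It held 8 pooled regions, 7 of them inside the gene, or 0.474 per kb of gene body. More pooled regions were assigned to 0.456% of genes, and a higher density was found in 6.40%. The 4 IDR peaks were spread over 6483 bp, with gaps of 1896, 2587 and 2000 bp between their points. No stretch of that length starting at an IDR peak outside zfp-1 held more than 2 IDR peaks, although the length was set by zfp-1 itself. At least 2 IDR peaks were assigned to 0.02% of protein-coding genes, and alr-1, of which the transgene adds a copy, was the one other gene with 4.

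None of the 4 peaks lay at the 5′ end of the gene. All of them were inside the 2 longest of the 14 introns, which together make up 45.7% of its length. The first of these introns, of 3573 bp, held the peaks of ranks 17 and 40, at 4150 and 6046 bp from the most upstream start. The second, of 3173 bp, held the peaks of ranks 10 and 2, at 8633 and 10633 bp, and also the nested gene F54F2.6 on the opposite strand. The peaks of ranks 2 and 40 were 651 and 817 bp upstream of internal starts used by shorter annotated transcripts, F54F2.2c.2 and F54F2.2a.1, and so counted as promoter regions (1000 bp before a start to 200 bp past it). The peak of rank 10 lay 635 bp downstream of another internal start, that of F54F2.2c.1, and was nearer to the start of F54F2.6, at 533 bp. The only region upstream of the whole gene, 319 bp from the first start, had a signal of 2.78 and was absent from both replicates. It lay inside ztf-1, a gene on the opposite strand that overlaps the 5′ end of zfp-1, and 330 bp upstream of F54F2.14. The remaining regions were an intronic one of rank 1291 (signal 9.54), one of rank 5940 (signal 4.16) that overlapped the peak of rank 17, and one in the last exon (signal 2.78), nearest to F54F2.7 and found in neither replicate.

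**Figure D2:**
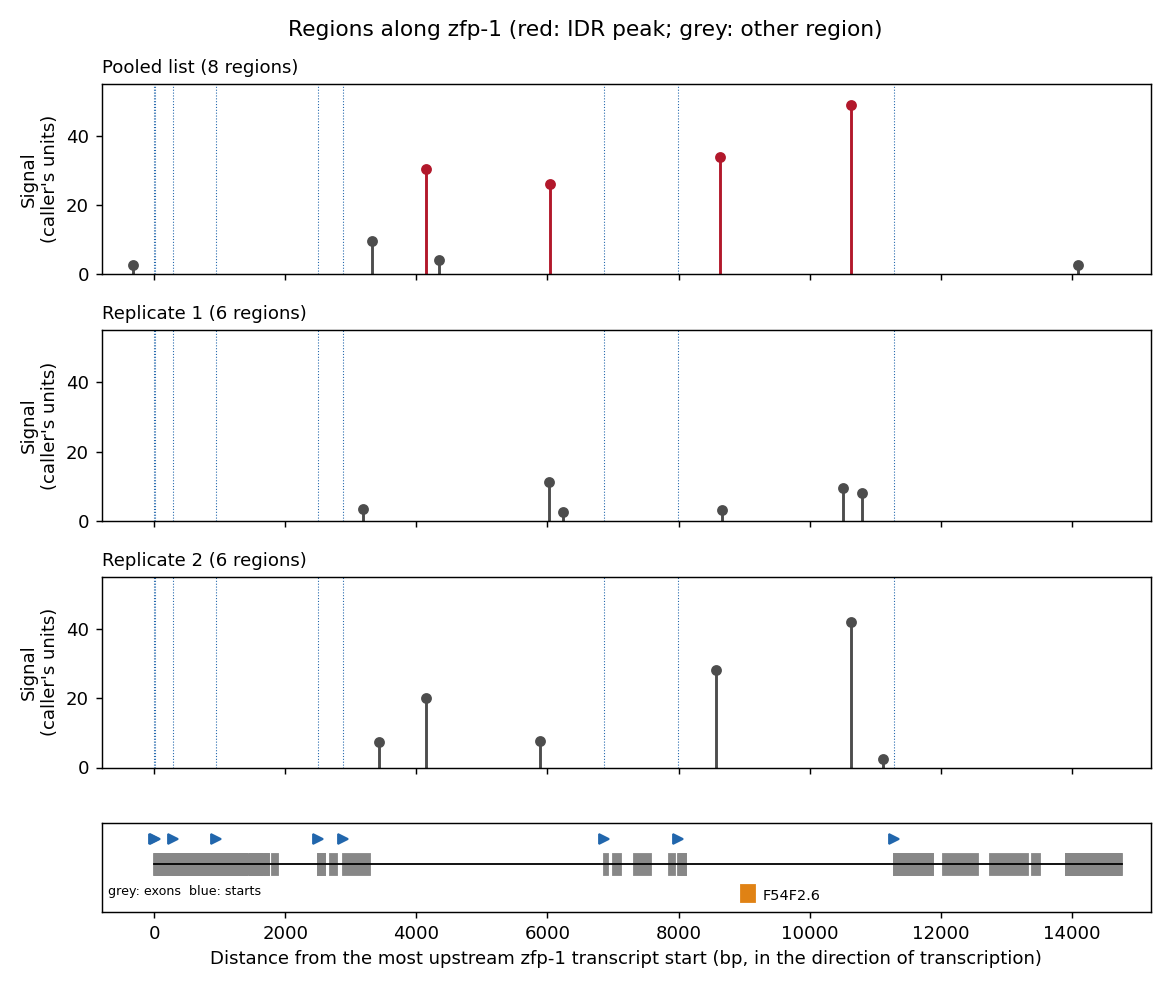
Signal of each region along zfp-1 in the pooled list and in each replicate, against the distance in bp from the most upstream start, above the annotated exons (grey), starts (blue) and the nested gene F54F2.6 (orange). The 4 IDR peaks (red) stand at 4150, 6046, 8633 and 10633 bp, in 2 long introns, and replicate 1 shows no region at the first of them.

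The replicates ordered the zfp-1 peaks differently. Signals of the replicates come from separate lists on an unstated scale, so a ratio between them describes the lists and is no measure of a difference in binding. The peak of rank 2 had a signal of 9.40 in replicate 1 and 41.9 in replicate 2, where it was the strongest region of the whole list. In replicate 1 this site was split into a pair of regions, of ranks 84 and 134, whose points lay 10505 and 10798 bp from the first start, on either side of the pooled point. The peak of rank 10 had a signal of 3.07 (rank 2258) in replicate 1 and 28.0 (rank 4) in replicate 2. This ratio of 9.13 was the highest among all 1724 pooled regions that overlapped a region in both replicates, where the median was 1.26. The peak of rank 17 had a signal of 19.95 (rank 22) in replicate 2 and no region in replicate 1. The peak of rank 40 went the other way, with 11.2 (rank 38) in replicate 1, the strongest zfp-1 region there, and 7.53 (rank 809) in replicate 2. A weaker replicate 1 region, with a signal of 2.49 (rank 3792), overlapped the peak of rank 40 as well. Thus 3 of the 4 peaks had the higher listed signal in replicate 2, counting the one with no region in replicate 1, and 1 had it in replicate 1. The intronic region of rank 1291 had signals of 3.37 and 7.33 in replicates 1 and 2. Its replicate points were 237 bp apart. Replicate 2 also had a weak region of signal 2.40 that overlapped no pooled region, 166 bp upstream of the F54F2.2c.2 start.

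The gene of the ZFP-1 partner, dot-1.1 (WBGene00021474, I:2382953-2401492, minus strand), is the longest of the 10 at 18540 bp but had 2 pooled regions and no IDR peak. The stronger lay 200 bp upstream of the first start, in the stretch shared with the divergent gene zwl-1, whose start was 538 bp away on the other side. Its signal was 8.64, within the top 12.3% of the pooled list (rank 1598), and 3.85 and 5.47 in replicates 1 and 2. It was thus seen in both replicates, with points 133 bp apart. The second region, 315 bp upstream of an internal start, had a signal of 3.25 and no region in either replicate. With no IDR peak at dot-1.1, its regions lie under the zfp-1 peaks by the threshold of the list alone. Their signals are therefore not compared with those of zfp-1.

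Of the other pair of enzymes that share a mark, met-1 (WBGene00016603, I:4254197-4264699, plus strand) had a strong peak and mes-4 (WBGene00003222, V:13433050-13437545, minus strand) had no region. The met-1 peak, of rank 11, was centred 2 bp upstream of the first of 4 annotated starts, with a signal of 33.9. Its signals were 6.41 (rank 318) in replicate 1 and 25.6 (rank 7) in replicate 2, and the replicate points were 39 bp apart, 7 and 46 bp upstream of that start. The peak thus lay within 46 bp of the start in all 3 lists, unlike those of zfp-1. The other met-1 region, in an exon, had a signal of 2.99 and was absent from both replicates. The pooled region closest to the mes-4 start was 15634 bp away, in an intron near srv-8, with a signal of 3.87.

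Of the heterochromatin genes, set-25 had 3 weak regions, a count that 3.64% of genes exceeded, and met-2 and hpl-2 had none. The regions of set-25 (WBGene00012802, III:13283824-13293090, minus strand) had pooled signals of 2.78, 2.78 and 3.86. The last was 174 bp upstream of the start and was in neither replicate. Of the other pair, inside the gene and nearest to F56A8.8, only the intronic one had a replicate region, in replicate 1 (signal 2.78). For met-2 (WBGene00019883, III:8375300-8380848, plus strand), the closest pooled region was 3695 bp from its start, in the promoter of lmbr-1 (signal 3.82). For hpl-2 (WBGene00001996, III:10752195-10755530, minus strand), it was 6694 bp away, in an exon and nearest to dkc-1 (signal 2.61). Its signal was close to the lowest of the pooled list, 2.53.

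The genes set-2 and set-17 each had a weak region at a start. That of set-2 (WBGene00004782, III:4922427-4930204, minus strand) lay 198 bp upstream, with a pooled signal of 6.57 (rank 2769), a replicate 2 signal of 5.32 and no replicate 1 region. That of set-17 (WBGene00011887, II:8939054-8940488, minus strand) lay in an exon 123 bp downstream of the nearer of its 2 starts. Its signal was 4.15 (rank 5952), and 2.46 and 4.59 in replicates 1 and 2. Although weak, it had the closest replicate points of the 9 member regions found in both, 3 bp apart. With 1 region inside a gene of 1435 bp, set-17 had the highest density of the 10, 0.697 per kb of gene body. A second region past its end, inside T21B10.3, had a signal of 2.78 and no replicate region.

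The hmg-1.2 gene (WBGene00001972, III:6280380-6282438, plus strand) had a pair of overlapping pooled regions around its start. The IDR peak, of rank 68, was centred 101 bp upstream (signal 23.2), and its neighbour, of rank 549, lay 84 bp downstream of the nearest of 3 starts (signal 13.2). A single region in each replicate overlapped both. Its signal was 5.23 (rank 624) in replicate 1 and 19.5 (rank 27) in replicate 2. The replicate points were 183 bp apart and on opposite sides, 56 bp downstream of the nearest start in replicate 1 and 86 bp upstream in replicate 2. The stronger pooled region thus followed replicate 2, whose point was 15 bp from it, and the weaker one followed replicate 1, at 28 bp.

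**Figure D3:**
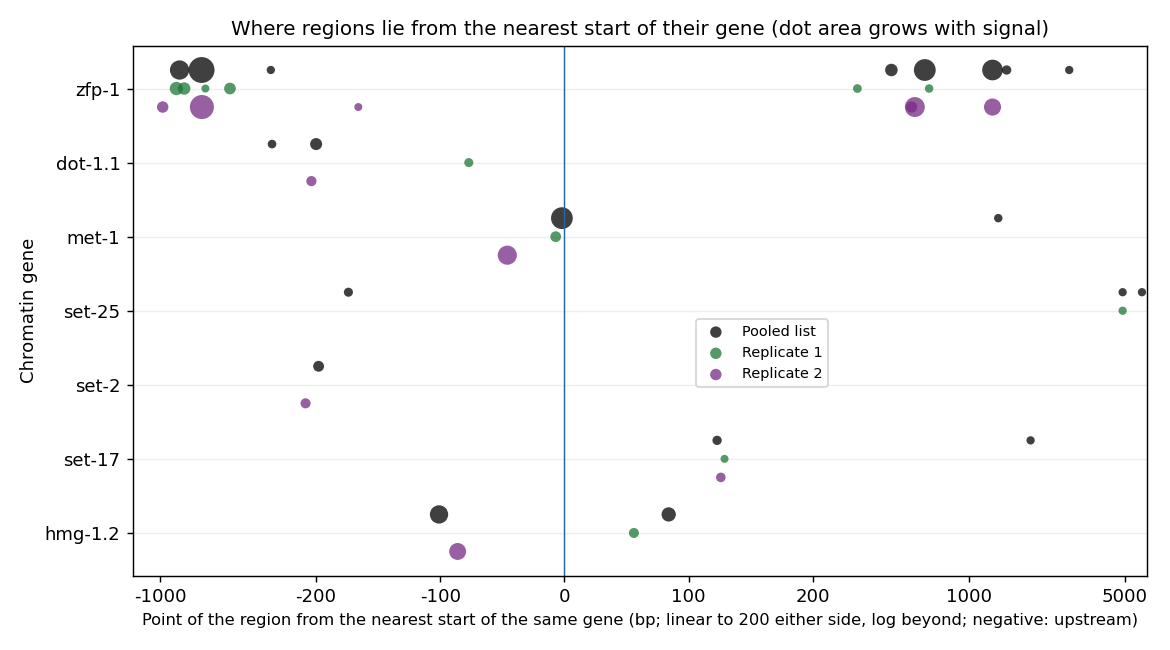
Distance in bp from each region's point to the nearest start of the same gene (linear to 200 bp, log beyond, negative upstream), for the pooled list and both replicates, with dot area growing with signal. The met-1 dots lie within 46 bp of the start in all 3 lists, apart from a weak pooled one at 1354 bp, those of hmg-1.2 fall on both sides of it, and the 4 zfp-1 IDR peaks lie 635 to 1276 bp from the nearest zfp-1 start.

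Across the 20 pooled regions, 11 lay in promoters, 5 in introns and 4 in exons outside promoters, and none in intergenic sequence. Promoters held 40.3% of all pooled regions. The rule itself favours sites in and near genes, so these shares are not set against the whole list. A region in both replicates was overlapped by 9 of the 20 (45%, exact 95% interval 23.1 to 68.5), beside 13.3% of all pooled regions. Of the 6 IDR peaks 5 did so, beside 84 of all 103. Of the 14 regions outside the IDR list 4 did so (28.6%, interval 8.39 to 58.1), beside 12.7% of all regions outside it. Among these 4, the hmg-1.2 region overlaps the same replicate regions as the IDR peak next to it. The intervals take regions as independent, which regions of the same gene are not, so nothing is read from this share either. The genes were chosen in part for the IDR peaks, which are the 103 pooled regions of highest signal, so nothing is read from the 45%. Replicate 1 had a region at 10 of the 20, beside 30.9% of all pooled regions, and replicate 2 at 12, beside 48.6%. Neither replicate had a region at 7 of the 20 (35%), close to 33.8% of the whole list. Among the 9, the replicate 2 signal was higher in 8, with a median ratio of 3.73. That median was 1.91 over the 84 IDR peaks found in both and 1.26 over all 1724 regions found in both. Of the 9, 5 are IDR peaks. The pair at hmg-1.2 share their replicate regions, so both have the ratio of 3.73 that is also the median. The median of the 9 thus rests on that pair, and nothing is read from it. The replicate points of the 9 were a median of 130 bp apart, beside 104 bp over all 1724 such regions and 60 bp over the 84 IDR peaks.

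**Figure D4:**
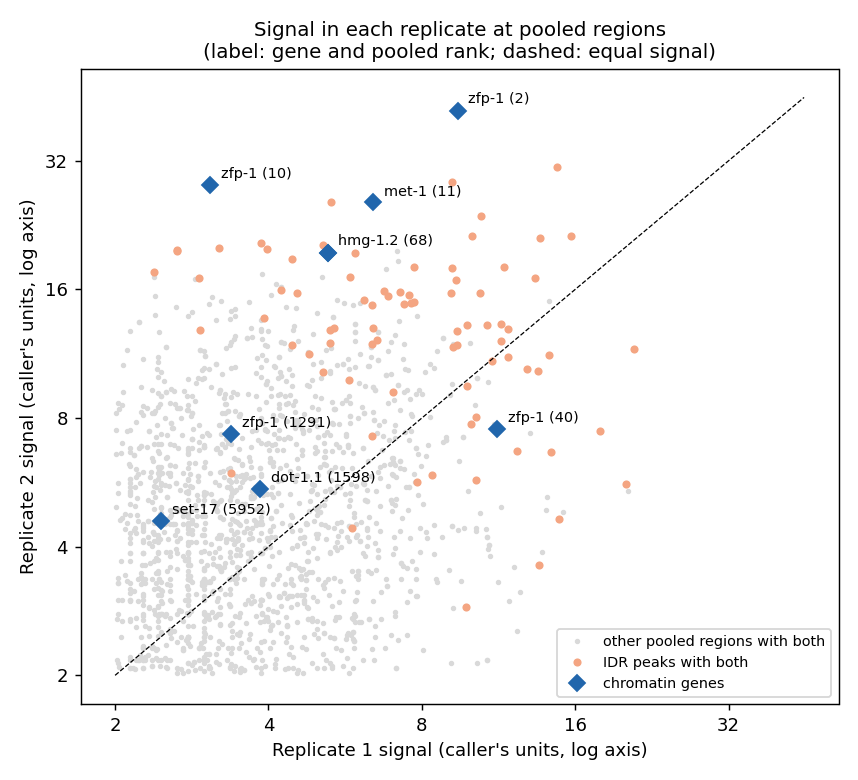
Signal in replicate 1 against replicate 2, both on log axes, at the 1724 pooled regions that overlapped a region in both (grey), the 84 of them that are IDR peaks (orange) and the 9 of the chromatin genes (blue, labelled with the pooled rank). The zfp-1 region of rank 40 is the blue point below the line of equal signal, the pair at hmg-1.2 coincides, and the others lie above it.

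All regions were then searched for 3 short motifs within 100 bp of the point, on both strands. These were the homeodomain core TAATTA, the short core TAAT that it contains, and the GA repeat. As GAGAGA, the repeat was found at 5 of the 6 IDR peaks of these genes (83.3%, exact 95% interval 35.9 to 99.6), beside 47.6% of all 103 IDR peaks and 22.8% of pooled regions. Of those 5, 3 are in zfp-1, so they are not independent of each other, as the interval assumes. The genes and the motifs were chosen with earlier results of these data known, so nothing is read from this difference. The zfp-1 peak of rank 40 held the most matches, 9 counting overlaps, 8 of them between 50 and 25 bases to the left of the point. The peaks of ranks 2 and 10 held 4 each. The hmg-1.2 peak held 3, all read as TCTCTC on the strand shown and beginning at the point itself and 12 and 72 bases to its right, and the met-1 peak held 2. The peak of rank 17 held none. GAGAGA was held by 10 of all 20 regions.

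The homeodomain core TAATTA was found at none of the 6 IDR peaks (exact 95% interval 0 to 45.9%) and at 2 of the 20 regions, beside 7.97% of pooled regions and 7.77% of IDR peaks. One was the set-25 region shown above, with the match 87 bases to the right of the point, and the other was the region past the end of set-17. TAAT was found at 2 of the 6 peaks, those of rank 40 in zfp-1 and rank 68 at hmg-1.2, and at 14 of the 20 regions, beside 66% of IDR peaks and 80.5% of pooled regions. The bases within 100 bp of the point were 45.6% ± 4.89 G or C (SD across the 6 peaks), beside 43.96% ± 5.89 over all IDR peaks and 38.4% ± 6.59 over all pooled regions. Since TAAT is made of A and T and GAGAGA is not, base composition moves with these shares, and its part in them was not tested.

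**Figure D5:**
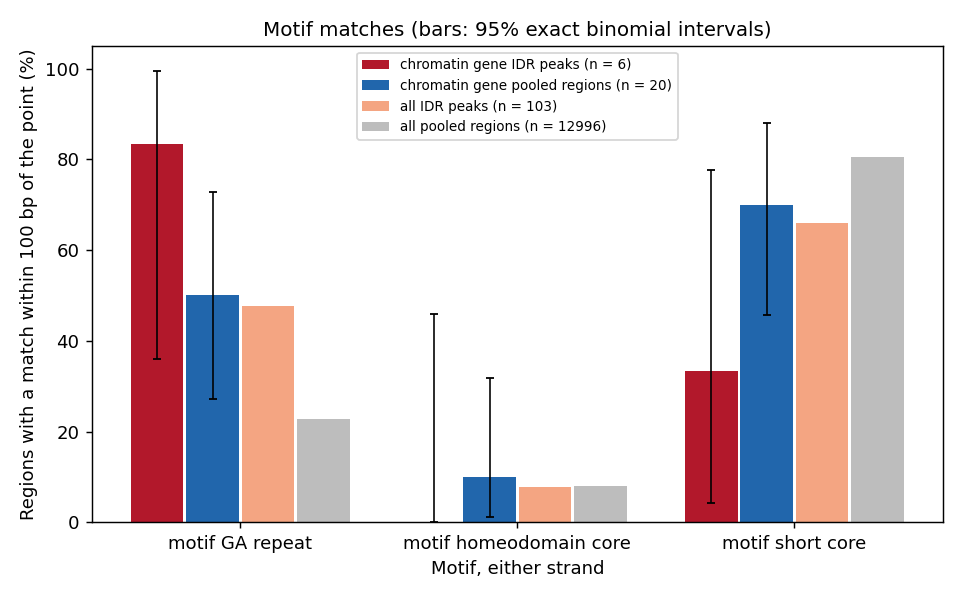
Share of regions (%) with a match within 100 bp of the point for the GA repeat GAGAGA, the homeodomain core TAATTA and the short core TAAT, for the 6 IDR peaks and 20 pooled regions of the chromatin genes with exact 95% binomial intervals, and for all 103 IDR peaks and all 12996 pooled regions. For the GA repeat the bars fall from 83.3% to 50%, 47.6% and 22.8%.

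For comparison, 94 other genes for chromatin proteins were counted by the same rule. A pooled region was found at 51 of them (54.3%, exact 95% interval 43.7 to 64.6), beside 39% of all protein-coding genes, and an IDR peak at none (interval 0 to 3.85%), where 0.521% of all genes had one. Their lengths ran from 662 to 15209 bp, with a median of 3487 bp against 2027 bp for all genes, and the part of length in this share was not tested. The median of the strongest pooled signal per gene was 4.94 over those 51 genes and 4.55 over all 7780 genes with a region. The strongest was in an intron of set-18, a SET-domain gene, with a signal of 17.8 (rank 207) and 6.86 and 11.5 in replicates 1 and 2. Next came the promoter of cbp-1, which encodes the CBP/p300 acetyltransferase (16.5, with 3.31 and 8.61), and a site 2461 bp upstream of the deacetylase gene hda-4 (15.05, with 3.78 and 10.2). All 3 were seen in both replicates. By group, to be read beside the same 39% of all genes, a pooled region was found at 3 of 3 genes of the complex that MES-2, MES-3 and MES-6 form, at 3 of the 4 other dot-1 genes, at 2 of 6 genes of the COMPASS complexes to which SET-2 belongs, and at 5 of 12 demethylase genes. It was found at 7 of 16 other SET-domain genes, at 4 of 10 genes for heterochromatin and chromodomain readers, at 3 of 8 HMG-box genes and at 5 of 9 synMuv B and DRM genes. The remaining groups were NuRD and MEC genes (5 of 6), other deacetylases (5 of 7), acetyltransferases (4 of 6) and SWI/SNF genes (5 of 7).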

How the data were processed

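Peak lists from 2 ChIP-seq libraries of eGFP-tagged ALR-1 in L2 larvae were used, on the build ce11. Per the file notes deposited with them, candidate lists come from the authors' calls on single replicates and on the 2 together, each against a control, and were the input from which the IDR peaks were drawn. Aligner, caller and the IDR threshold: not given in the sources used here. The deposited signal values are the authors' caller's, on an unstated scale, and served here to order regions inside each list and, at regions found in both replicates, to give a ratio between their lists, printed as a description beside its median over all such regions. The deposited q-values are −log10 values by the narrowPeak format, with a ceiling of 2.90 shared by 402 pooled regions, and all 6 IDR peaks described were at it. Read depth is unknown. The ce10 lists were not used.

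Points were placed on Ensembl release 115 transcripts of WBcel235. Where several regions of a replicate overlapped a pooled region by at least 1 bp, the strongest was taken. Intervals are exact Clopper-Pearson and cover counting error only. The members, the lists of other genes and the motifs were chosen with earlier results of these data known. All 10 members were named, with genes nearer to a region inside a member and the 3 strongest of the other chromatin genes. Of 96 such genes listed, 94 matched the annotation. Assignment, promoter, overlap and motif settings and each replicate alone were tried as alternatives. The code, tested on simulated data, ran in Python 3.11.15 with pandas 2.3.3, numpy 2.4.6 and scipy 1.17.1, and figures were drawn with matplotlib 3.10.9.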

Additional observations from a re-analysis of the deposited data

How the results depend on the processing

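No paired analysis was possible because a single group was sampled. Joining overlapping regions, the settings for GAGAGA and those for the density of zfp-1 were chosen after seeing the data. Of 53 values under alternative settings, 42 stayed within limits: 1.5 times for a count or density, the exact 95% interval for a share, and the SD between the replicates' medians for the median signal. Those limits are wide with 20 regions. Limiting the nearest start to 3000 bp changed no value, so its values could only stay within them. The median signal of each replicate alone was judged by a limit drawn from those same medians. The 42 include these values, so that count overstates how stable the results are. With regions in gene bodies only, 13 regions and 1 gene with an IDR peak remained, since the met-1 and hmg-1.2 points lie upstream of their genes, and the TAATTA share was 0%. With 1 replicate alone there were 11 to 11 regions, 2 to 5 of the members' regions among the 103 strongest, 1 to 3 genes with such a region and a TAATTA share of 0 to 9.09%. The lower counts came from replicate 1 alone, in which zfp-1 was the gene with such regions. When replicate points had to lie within 100 bp of the pooled point, 15% of the 20 regions were found in both instead of 45%. The 13.3% given above for all pooled regions is for an overlap of at least 1 bp and is no base for this 15%. In a window of 50 bp, the TAATTA share was 0% and the GAGAGA share 25%, and in one of 250 bp they were 25% and 65%, as a longer window holds more matches. The shares of all pooled regions given above are for 100 bp. They are no base for these values, which are not set against the whole list. The depth of the libraries is unknown, so a missing region does not show that ALR-1 was absent.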

Other observations

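Among the other chromatin genes, egl-27, which encodes a protein related to the MTA subunits of the NuRD complex, was picked out after its values were seen. It had 25 pooled regions (gene at II:6835008-6847908), the highest count of any protein-coding gene, ahead of lin-14 with 24 and alr-1 with 21, but no IDR peak. Replicate 1 had 13 regions assigned to egl-27 and replicate 2 had 17, and 6 of the 25 overlapped a region in both, beside 13.3% of all pooled regions. The 25 points spanned 21575 bp, with 10 inside the gene and 14 in intergenic sequence. Their signals had a median of 6.64 and reached 12.6 (rank 625). Without an IDR peak, all lie below the 4 zfp-1 peaks by the threshold of the list alone. In zfp-1 the regions were fewer, and 4 of the 6 in the 2 long introns were IDR peaks. As zfp-1 was selected on knowledge of its signals, nothing is read from this difference. GAGAGA lay within 100 bp of the point at 12 of the 25 egl-27 regions, beside 22.8% of all pooled regions, and TAATTA at 2, beside 7.97%.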
